A study of Mus musculus with 12 samples.

Results

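Cluster 9 of the 28W kidney library was analysed here as the authors deposited it: its members were the cell barcodes that carry cluster number 9 in their assignment of kidney cells. It held 513 of the 7135 kidney cells, a share of 7.19% (95% exact binomial interval, 6.60% to 7.81%), and the 3 libraries of the series held 20510 cells in all. Single-cell RNA sequencing was applied to T cells that had been sorted as CD8+, CD44+ and PD-1+ from NZB/W F1 mice. Libraries were made from spleen at 12 weeks (12W spleen), from spleen at 28 weeks (28W spleen) and from kidney at 28 weeks (28W kidney). All 3 groups share this genotype, the first-generation cross of NZB and NZW mice, in which lupus nephritis appears with age, and the study describes its animals as female. For 28W spleen the titles were followed, although another label gives those samples as 12 weeks old. Each library pools 4 samples, whose titles differ only in a lane-like number, with no map from cells to samples, so there was 1 library per group, no replicate and no test, and the number of mice is not given.

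CD8+ T cells that persist after an immune response range from memory-type cells, which can recirculate and self-renew, to effector cells, which carry granzymes and perforin and stay near inflamed tissue. The IL-7 receptor sustains survival of the former, the chemokine receptor CCR7 brings them into lymph nodes, and the transcription factors TCF-1 and LEF-1 keep them capable of renewal. In nephritic kidney, effector-type CD8+ T cells gather around glomeruli and in the interstitium.

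Cluster 9 contributed 2395757 of 29937384 kidney UMIs (unique molecular identifiers, 1 per captured transcript), or 4670 UMIs per cell. The other 11 clusters held from 1200 UMIs per cell in cluster 2 to 11404 in cluster 11. Mitochondrial transcripts made up 0.712% of its UMIs, between 0.515% in cluster 1 and 10.8% in cluster 2, and ribosomal protein transcripts 32.5%, between 7.92% in cluster 2 and 37.6% in cluster 5. Of its 513 barcodes, 3 also occurred in the 12W spleen library and 6 in the 28W spleen library (0.585% and 1.17%), against 0.785% and 0.925% over all kidney barcodes. Levels are given as CPM, that is UMIs of a gene per 1e+06 UMIs of the cluster, with exact 95% Poisson intervals in brackets. These intervals, like the binomial ones, cover counting error and not differences between mice, and in cluster 9 a count of 0 allows a level of up to 1.25 CPM (3 counts, a one-sided limit).

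Transcripts of the sort were present. *Cd8a* was at 768 CPM (733 to 804), *Cd8b1* at 1146 CPM (1104 to 1190), *Cd44* at 72.6 CPM (62.2 to 84.3) and *Pdcd1*, which encodes PD-1, at 94.8 CPM (82.8 to 108). Their summed level of 2081 CPM lay inside the span of the other clusters, 541 CPM in cluster 12 to 2951 CPM in cluster 6. Markers of most other lineages were in the low part of theirs. B cell genes summed to 182 CPM, within 153 to 5013 CPM elsewhere, and the defining *Cd79a* and *Ms4a1* had 0 UMIs. Myeloid genes summed to 10.0 CPM with *Csf1r*, *Adgre1* and *Itgam* at 0 UMIs, neutrophil genes to 1.25 CPM, kidney tubule genes to 6.68 CPM and erythroid genes to 8.35 CPM. Glomerular and fibroblast genes had no UMI, and dendritic cell, NK cell and endothelial genes summed to 0.835, 6.68 and 28.0 CPM. Genes of CD4 T cells summed to 17.1 CPM, of regulatory T cells to 40.9 CPM, of gamma delta T cells to 15.4 CPM and of interleukin-17-producing cells to 24.2 CPM, all inside the span of the other clusters. From the top of the 12 clusters, the gamma delta sum ranked 9 and the other 3 sums ranked 4. *Cd4* at 6.68 CPM (3.82 to 10.8) and *Foxp3* at 3.76 CPM (1.72 to 7.13) each ranked 3. For the lineages whose markers led other kidney clusters, cluster 9 therefore sat in the low group, as the plot of marker lists shows.

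**Figure D1:**
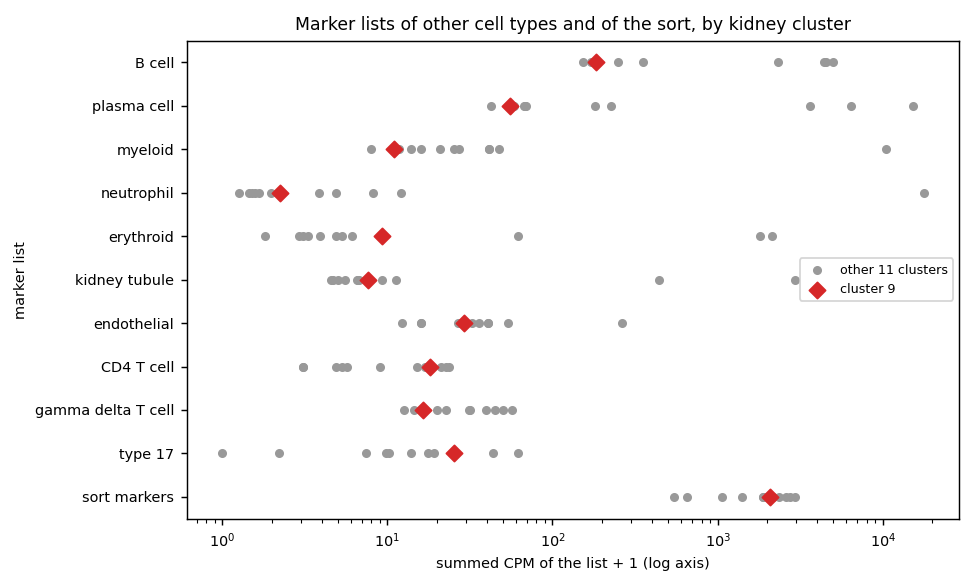
Summed CPM (plus 1, log axis) of 10 marker lists of other cell types and of the 4 sort markers. Each grey point is 1 of the other 11 kidney clusters and the red diamond is cluster 9. B cell, plasma cell, myeloid, neutrophil and erythroid genes reach above 1000 CPM in some clusters, while cluster 9 stays at 182, 54.7, 10.0, 1.25 and 8.35 CPM.

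Few genes set cluster 9 apart from the remaining kidney cells as a pool. With a pseudocount of 10 CPM and a floor of 50 CPM on either side, 2733 genes were ranked by their log2 ratio. Of these, 3 (0.11%) were at least 2-fold higher in cluster 9, *Il7r* and *Nsg2* among them, and 92 (3.37%) were at least 2-fold lower. In the other clusters, compared in the same way, from 1 gene (cluster 4) to 457 genes (cluster 12) were higher, and from 95 genes (cluster 3) to 870 genes (cluster 2) were lower. The median log2 ratio of the ranked genes was -0.04, and 1177 of 2733 were above the remaining cells, the count against which those of gene lists are to be read. Cluster 9 had the highest level of the 12 clusters for 38 of 4645 genes, against 56 in cluster 5, 57 in cluster 4 and 912 in cluster 11. Because the clusters were formed from these same genes, all values of a cluster against other cells are descriptions.

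*Il7r*, the IL-7 receptor alpha chain (GRCm38 chromosome 15, 9505788 to 9530176), was at 404 CPM (379 to 430) in cluster 9 and at 140 CPM (136 to 145) in the remaining kidney cells, a log2 ratio of 1.46. Over the other 11 clusters it ran from 25.9 CPM in cluster 11 through a median of 88.1 CPM to 624 CPM in cluster 5, so cluster 9 was the second highest. *Nsg2*, a gene best known from neurons (chromosome 11, 32000463 to 32059202), was at 105 CPM (92.6 to 119) against 37.5 CPM (35.3 to 39.9), a log2 ratio of 1.28, and the next cluster, cluster 5 at 95.4 CPM, lay inside the counting interval.

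The stretch of 250 bases ahead of the RefSeq start of *Il7r* and of *Nsg2* is shown because both genes were among the 3 leading ones and had their highest levels in the same clusters, 5 and 9. The sequences are from RefSeq (GRCm38.p6). Both are written 5′ to 3′ on the strand of the gene, that is minus for *Il7r* at chr15:9529877-9530126 and plus for *Nsg2* at chr11:32000169-32000418. The *Il7r* stretch lies within the GENCODE span given above, since the RefSeq start used is downstream of the GENCODE one. Capitals mark a match to the ETS motif CAGGAAGT, here on the opposite strand.
Il7r: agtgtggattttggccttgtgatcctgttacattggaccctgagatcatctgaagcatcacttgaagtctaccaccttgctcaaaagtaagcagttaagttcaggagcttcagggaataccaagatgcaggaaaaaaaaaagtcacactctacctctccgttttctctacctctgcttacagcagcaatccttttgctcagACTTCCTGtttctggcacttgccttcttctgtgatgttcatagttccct
Nsg2: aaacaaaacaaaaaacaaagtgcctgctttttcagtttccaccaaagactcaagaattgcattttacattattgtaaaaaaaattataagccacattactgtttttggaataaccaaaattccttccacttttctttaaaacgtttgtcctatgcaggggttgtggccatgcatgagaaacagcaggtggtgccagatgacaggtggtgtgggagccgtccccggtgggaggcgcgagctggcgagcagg
The *Il7r* stretch held 1 ETS match, a motif found on either strand in 2.69% of 32851 promoters of the same length. Neither stretch held the FOXO motif GTAAACA (in 3.17% of promoters), the TCF and LEF motif CTTTGAA (4.46%), the RUNX motif TGTGGTT (4.40%) or the KLF motif CCACCC (28.1%). These letters are a description of the window, and their part in the levels was not tested.

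Below the 2-fold line the next genes included regulators of memory-type cells and survival. *Tcf7*, which encodes TCF-1, was at 149 CPM (134 to 166) against 70.6 CPM (67.5 to 73.8), a log2 ratio of 0.98, and only cluster 10 was higher at 174 CPM. *Il18r1*, an IL-18 receptor chain, had a log2 ratio of 0.90 at 75.1 CPM (64.6 to 87.0), and *Bcl2*, which protects from apoptosis, one of 0.86 at 84.3 CPM (73.1 to 96.8). The list of the 15 highest went on with *Thada* (0.89), *Dapl1* (0.86), *Hspa1b* (0.81), *Rflnb* (0.78), *Actn1* (0.76), *Tdrp* (0.75), *Ssbp2* (0.72), *Sidt1* (0.72) and *Tsc22d3* (0.72), the last being a glucocorticoid-induced gene. *Hspa1b* and its near-identical copy *Hspa1a* share sequence, so their split is uncertain. *Thada* and *Actn1* were also highest in cluster 9 of the 12 clusters, but the next cluster lay inside the counting interval for both, at 51.7 CPM in cluster 10 and 82.1 CPM in cluster 8. Apart from *Hspa1b*, all 15 had their highest level outside cluster 9 in cluster 5, 8 or 10, so these genes were shared with other clusters.

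The 10 lowest ratios belonged to genes with high levels in a few other clusters. The class II antigen-presentation genes *Cd74* (log2 ratio -5.72), *H2-Aa* (-5.60) and *H2-Eb1* (-4.72) and the neutrophil genes *S100a8* (-4.55) and *S100a9* (-4.55) peaked in cluster 12, with *Cd74* also at 8718 CPM in cluster 8. *Jchain* (-5.52), the joining chain of secreted antibody, and *Hbb-bs* (-4.10), a haemoglobin gene with near-identical copies, peaked in cluster 2, with *Hbb-bs* also at 1116 CPM in cluster 11. *Gm20730* (-4.72) and *Gpx3* (-4.23), a secreted peroxidase made by kidney tubule, peaked in cluster 7, and the replication gene *Pclaf* (-4.12) in cluster 11. Cluster 7 summed to 2949 CPM for kidney tubule genes, 5013 CPM for B cell genes and 6463 CPM for plasma cell genes. In cluster 9 *S100a8* had 0 UMIs and *S100a9* and *Gm20730* had 1 each, so the size of their ratios is set by the pseudocount. Against clusters 1, 3, 4, 5, 6 and 10 alone, which hold none of these peaks, 9 of these 10 had ratios between -0.46 and 0.25, *Pclaf* being at -1.53.

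A comparison with clusters 1, 3, 4, 5, 6 and 10, called the 6 reference clusters, was added after the data were seen. It leaves out clusters 2, 7, 8 and 12, which carry B cell, plasma cell, kidney tubule or myeloid markers, and cluster 11, which leads the proliferation list. The 6 differ among themselves: cluster 10 had 1822 UMIs per cell and the highest regulatory T cell sum (62.0 CPM), and cluster 4 the highest gamma delta (55.9 CPM) and interleukin-17 sums (61.1 CPM). Among 2646 ranked genes, 13 (0.491%) were at least 2-fold higher in cluster 9 and 11 (0.416%) were at least 2-fold lower, with a median log2 ratio of -0.07 and 1018 of 2646 genes above. The higher genes included *Ccr7* (log2 ratio 1.15), *Nsg2* (1.14), *Il7r* (1.13) and *Klf2* (1.08), which drives the egress receptor *S1pr1*. They also included *Tnfaip3* (1.52), *Junb* (1.31), *Pim1* (1.29), *Ctla4* (1.26), *Vps37b* (1.19), *Socs3* (1.14), *Bhlhe40* (1.01) and *Dusp1* (1.0). The lower genes included *Gzmb* (-2.70), *Gzma* (-1.69), *Ccr2* (-1.51), *Fgl2* (-1.49), *Stmn1* (-1.32), *Cxcr6* (-1.17), *S100a4* (-1.15), *Lgals3* (-1.14), *Isg20* (-1.07) and *Isg15* (-1.02). Among them are 2 granzyme genes and the interferon-induced *Isg15* and *Isg20*. Of the 13 higher genes, 10 had their peak in cluster 8, and cluster 9 came second to it for 6 of them.

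**Figure D2:**
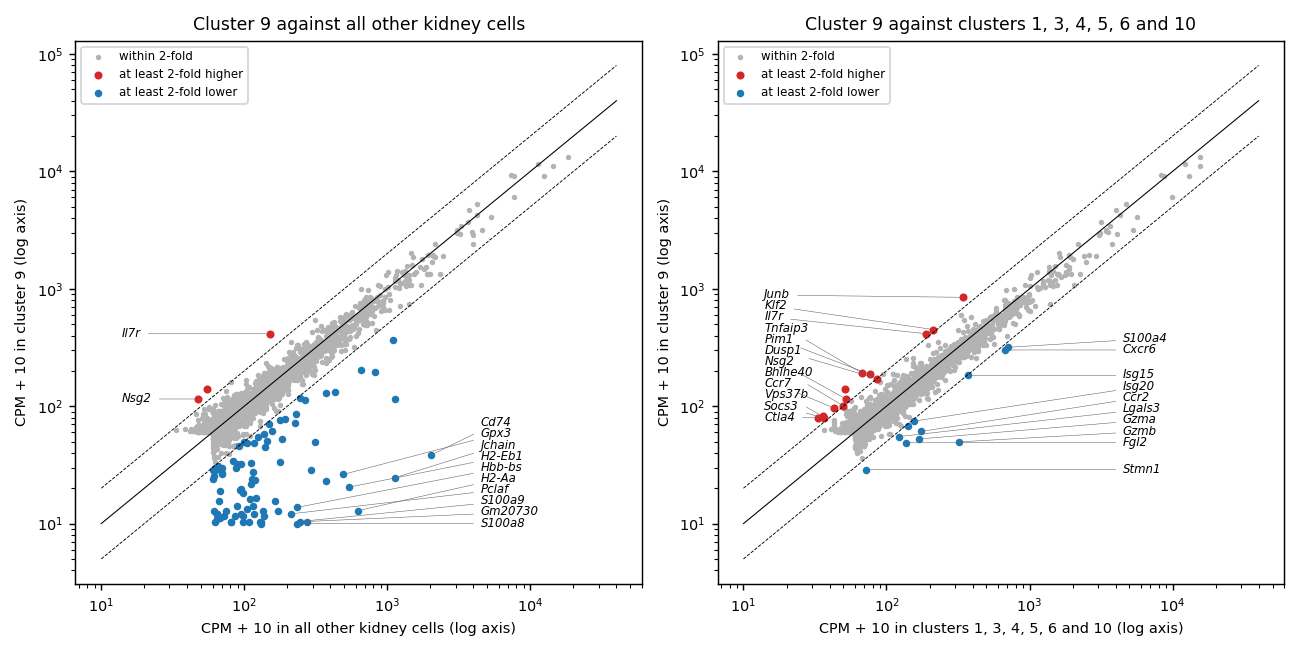
CPM plus 10 (log axes) of each ranked gene in cluster 9 against all other kidney cells (left, 2733 genes) and against clusters 1, 3, 4, 5, 6 and 10 (right, 2646 genes). Dashed lines mark a 2-fold difference. Left, 3 genes are above the upper line and 92 below the lower one, and the 10 lowest are named; right, 13 genes are above and 11 below. Names are given for genes named in the text.

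Genes of the memory list stood highest among the 7 program lists that follow the subsets the study names. All 5 genes were above the remaining kidney cells, with a median log2 ratio of 0.71, and above the 6 reference clusters with a median of 0.97. *Lef1*, the partner of TCF-1, was at 76.4 CPM (65.7 to 88.3) against 42.8 CPM (40.4 to 45.4) in the remaining cells, and *Satb1*, a chromatin organiser, at 29.6 CPM (23.1 to 37.4) against 19.8 CPM (18.1 to 21.5). *Ccr7* was at 86.0 CPM (74.6 to 98.6) against 77.6 CPM in the remaining cells, where cluster 8 alone had 460 CPM, and against 33.2 CPM in the 6 reference clusters. The summed level of the list was 471 CPM (444 to 500), with a median of 194 CPM over the other 11. Only cluster 8 was higher, at 880 CPM, of which *Ccr7* was 460 CPM. Cluster 8 also carried B cell genes at a sum of 4401 CPM. Among the 6 reference clusters the highest memory sum was 424 CPM in cluster 5. The CD29 list, which also holds *Il7r*, had a median of 0.42, with 4 of 5 genes above the remaining cells. In it *Klf2* was at 439 CPM (413 to 467) against 313 CPM and *S1pr1* at 72.2 CPM (61.8 to 83.8) against 51.5 CPM, while *S100a4*, a calcium-binding protein of effector cells, was at 307 CPM (285 to 330) against 573 CPM. The summed level of the list, which is named for the integrin chain CD29, was 1789 CPM and ranked 5 of the 12 clusters. It was 1631 CPM in the remaining cells and 1724 CPM in the 6 reference clusters, so the sum differed little. Against the 6 reference clusters 3 of the 5 genes were above, with a median of 0.62. *Itgb1*, which encodes CD29 itself, was not among these 3 and was only slightly above the remaining cells.

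Cytotoxic genes were lower than in the remaining kidney cells pooled. None of the 7 was above the remaining kidney cells, and the median log2 ratio was -0.61, or -0.82 against the 6 reference clusters. *Gzmb*, granzyme B, was at 39.7 CPM (32.1 to 48.5) against 303 CPM (297 to 310), a log2 ratio of -2.66, within a span of 6.94 CPM in cluster 5 to 696 CPM in cluster 1 and a median of 118 CPM. *Gzma*, granzyme A, was at 42.6 CPM (34.7 to 51.7) against 175 CPM (170 to 180), a log2 ratio of -1.81. Cluster 9 had the lowest *Gzma* level of the 12 clusters, and the next, 57.6 CPM in cluster 4, lay above its interval. *Gzmk*, granzyme K, at 383 CPM (358 to 408) against 591 CPM, and *Cxcr6*, a receptor that holds T cells in tissue, at 291 CPM (270 to 314) against 494 CPM, differed less. *Ccl5*, a chemokine of effector and memory CD8+ T cells, was at 6019 CPM (5921 to 6118) against 7624 CPM. Transcripts of *Gzmk* and *Ccl5* were thus abundant in cluster 9 although they were lower than in the remaining cells. Medians over the other 11 clusters were 421 CPM for *Gzmk* and 319 CPM for *Cxcr6*. Cluster 5 had a lower summed level of the list, 7817 CPM against 8179 CPM in cluster 9. It had less *Gzmb*, *Gzmk* (279 CPM) and *Cxcr6* (172 CPM), but more *Gzma* (89.3 CPM) and *Ccl5* (6166 CPM).

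Interferon-stimulated genes were also lower than in the 6 reference clusters pooled. Of 12 such genes, 4 were above and 8 below the remaining kidney cells, with a median log2 ratio of -0.31, and none was above the 6 reference clusters, with a median of -0.55. *Isg15*, a ubiquitin-like protein, was at 173 CPM (157 to 190) against 296 CPM, *Isg20*, an exonuclease, at 64.7 CPM (54.9 to 75.7) against 118 CPM, *Rsad2*, viperin, at 18.4 CPM (13.3 to 24.7) against 31.9 CPM, and *Ifit1* at 70.1 CPM (59.9 to 81.6) against 97.8 CPM. Cluster 6 was the highest for all 4, with 908 CPM for *Isg15*. The 14 interferon-induced GTPases had a median of 0.05 against the remaining cells and of -0.21 against the 6 reference clusters, where 1 of 14 was above, with reads of some Gbp copies of uncertain split. The 9 MHC class I genes had a median of 0.01, and none was above the 6 reference clusters, with a median of -0.15.

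Proliferation genes had a median log2 ratio of -2.43 against the remaining kidney cells, with 6 of 7 at least 2-fold lower. This followed cluster 11, where the list summed to 12479 CPM against 842 CPM in cluster 9. *Mki67* was at 8.35 CPM (5.10 to 12.9) in cluster 9 against 88.6 CPM, *Birc5* at 1.67 CPM (0.455 to 4.28) against 128 CPM, *Pclaf* at 2.09 CPM (0.678 to 4.87) against 201 CPM and *Stmn1* at 18.8 CPM (13.7 to 25.1) against 281 CPM. Against the 6 reference clusters the median was -0.35. The migration list had a median of -0.04 and both directions among its 4 genes: the chemokine *Xcl1* was at 203 CPM (185 to 222) against 139 CPM, *Srm* at 32.1 CPM against 30.1 CPM, *Mif* at 371 CPM against 418 CPM and *Cxcr3*, a receptor for interferon-induced chemokines, at 383 CPM (359 to 409) against 425 CPM.

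**Figure D3:**
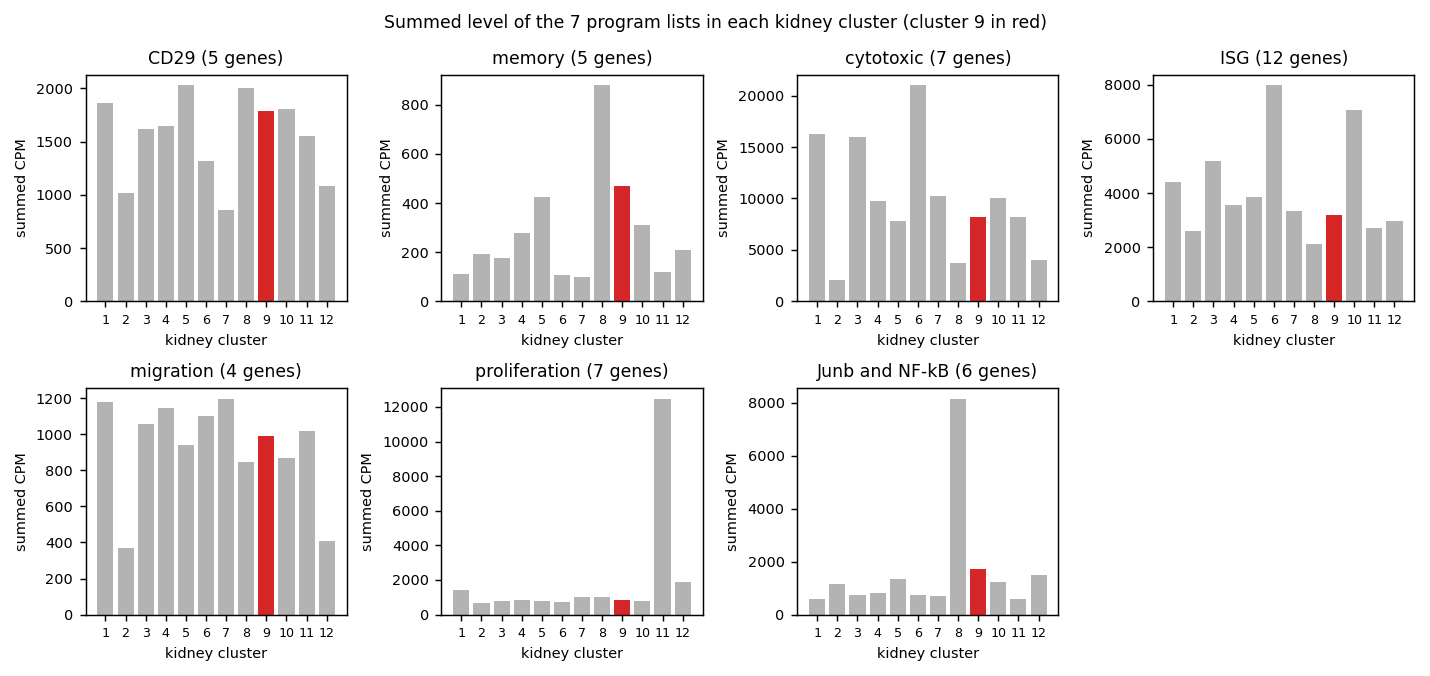
Summed CPM of the genes of each of the 7 program lists in the 12 kidney clusters, with cluster 9 in red. Cluster 9 is second to cluster 8 for the memory list (471 against 880 CPM) and for the Junb and NF-kB list (1733 against 8164 CPM). Cluster 8 also carries B cell markers. Cluster 9 ranks 8 for the cytotoxic and the interferon-stimulated (ISG) lists.

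The Junb and NF-kB list covers an AP-1 subunit together with NF-kB subunits and the inhibitors that NF-kB induces against itself. Against the remaining kidney cells its median was 0.09, with 4 of 6 genes above, and this sign turned when every other cluster was given equal weight (-0.04). Against the 6 reference clusters all 6 were above, with a median of 0.67. *Junb* was at 836 CPM (800 to 874) in cluster 9, at 332 CPM in the 6 reference clusters and at 4515 CPM in cluster 8, with a median of 323 CPM over the other 11. *Tnfaip3*, which encodes the NF-kB inhibitor A20, was at 182 CPM (166 to 200), at 57.0 CPM in the 6 reference clusters and at 810 CPM in cluster 8. *Pim1*, a kinase induced by cytokine signals, was at 177 CPM (160 to 195), 66.6 CPM and 1188 CPM in the same order. Cluster 9 held the second level of the 12 for all 3 genes, far under cluster 8, which also carried B cell markers.

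All 11 AP-1 and immediate-early genes were above the 6 reference clusters, with a median of 0.59, and 6 of 11 above the remaining cells, with a median of 0.13. *Fos* was at 244 CPM (224 to 264) against 128 CPM in the 6 reference clusters, *Jun* at 438 CPM (412 to 465) against 305 CPM, *Btg2* at 273 CPM (252 to 294) against 201 CPM, and *Atf3* at 5.84 CPM (3.19 to 9.80) against 1.51 CPM. The 6 differed: the list summed to 3054 CPM in cluster 10, 2930 CPM in cluster 5 and 1676 CPM in cluster 1, against 3239 CPM in cluster 9. *Fos* was higher in cluster 5 (284 CPM) and *Btg2* in cluster 10 (360 CPM), while *Atf3* reached at most 5.17 CPM in the 6. Among 13 activation genes, 9 were above the 6 reference clusters and 5 above the remaining cells, with medians of 0.59 and -0.08. The second count is near the share of all ranked genes, although only 6 of the 13 passed the floor used for that share. *Nr4a1*, a nuclear receptor induced by T cell receptor signals, was at 38.4 CPM (31.0 to 47.1), at 12.2 CPM in the 6 reference clusters and at 733 CPM in cluster 8. The costimulatory receptors *Tnfrsf4* (OX40) and *Icos* were at 33.4 CPM (26.5 to 41.6) and 174 CPM (158 to 192) against 4.78 and 109 CPM in the 6 reference clusters. Heat shock genes, which also respond to tissue digestion, had medians of 0.21 against the remaining cells and 0.17 against the 6 reference clusters. The kidneys were digested with collagenase, and the part of digestion in these levels was not tested.

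Among 8 inhibitory receptor genes, 3 were above the remaining cells, a share near that of all ranked genes, with a median of -0.23. Only 4 of the 8 passed the floor used for the ranked genes. *Ctla4* was at 69.7 CPM (59.5 to 81.1) against 41.6 CPM in the remaining cells and 23.3 CPM in the 6 reference clusters, whereas *Entpd1* (CD39) was at 16.3 CPM (11.6 to 22.2) against 36.9 CPM, *Cd160* at 30.5 CPM (23.9 to 38.3) against 43.7 CPM and *Cd200* at 28.8 CPM (22.4 to 36.4) against 18.6 CPM. *Pdcd1* was at 94.8 CPM against 117 CPM. Cluster 9 thus had the second highest *Ctla4* of the 12 clusters, far under cluster 8 (213 CPM), without a like level of the list as a whole.

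The genes of 2 receptors that guide T cells into inflamed tissue, *Ccr2* and *Cx3cr1*, were lower than in the remaining kidney cells. *Ccr2* was at 50.9 CPM (42.3 to 60.8) against 146 CPM (141 to 150), a log2 ratio of -1.35, and *Cx3cr1*, a receptor of terminal effector cells, had 1 UMI, or 0.417 CPM (0.0106 to 2.33), against 11.1 CPM, which came largely from the 209 CPM of cluster 12, and 3.96 CPM in the 6 reference clusters. Over all 13 chemokine and egress receptors the median was -0.14, with 6 above and 7 below, a share near that of all ranked genes. Those above included *Ccr6* (17.5 against 9.98 CPM) and *Cxcr5* (10.9 against 6.54 CPM). In the S100, annexin and galectin list 1 of 12 genes was above, with a median of -0.64, and none was above the 6 reference clusters. *Lgals3* was at 45.1 CPM (37.0 to 54.4) against 114 CPM and *Lgals1* at 735 CPM (701 to 770) against 1400 CPM. *Anxa1* was at 1.67 CPM (0.455 to 4.28) against 22.2 CPM, which came largely from the 510 CPM of cluster 12. The tissue residency list had a median of 0.07, with *Itga1* at 4.17 CPM (2.0 to 7.68) against 10.7 CPM, *Prdm1* at 8.35 CPM (5.10 to 12.9) against 12.9 CPM and *Rgs1* at 437 CPM (411 to 465) against 354 CPM.

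Among 20 transcription factors the median was 0.12, with 12 above the remaining cells and 10 above the 6 reference clusters, and the 4 of largest ratio went in both directions. *Id3* and *Klf3*, linked to memory-type cells, were at 101 CPM (88.3 to 114) against 63.1 CPM and at 83.9 CPM (72.7 to 96.3) against 49.7 CPM. *Id2* and *Zeb2*, linked to effector cells, were at 329 CPM (307 to 353) against 490 CPM and at 6.68 CPM (3.82 to 10.8) against 16.5 CPM. The natural killer receptor list had a median of -0.26, with 1 of 9 above. Its lowest ratios, *Fcer1g* (-2.35) and *Tyrobp* (-2.28), followed the levels in cluster 12 and were 0.06 and 0.34 against the 6 reference clusters, while *Klrg1* was at 2.09 CPM (0.678 to 4.87) against 11.3 CPM. The T cell receptor complex list had a median of 0.00 against the remaining cells, and none of its 14 genes was above the 6 reference clusters, with a median of -0.23.

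**Figure D4:**
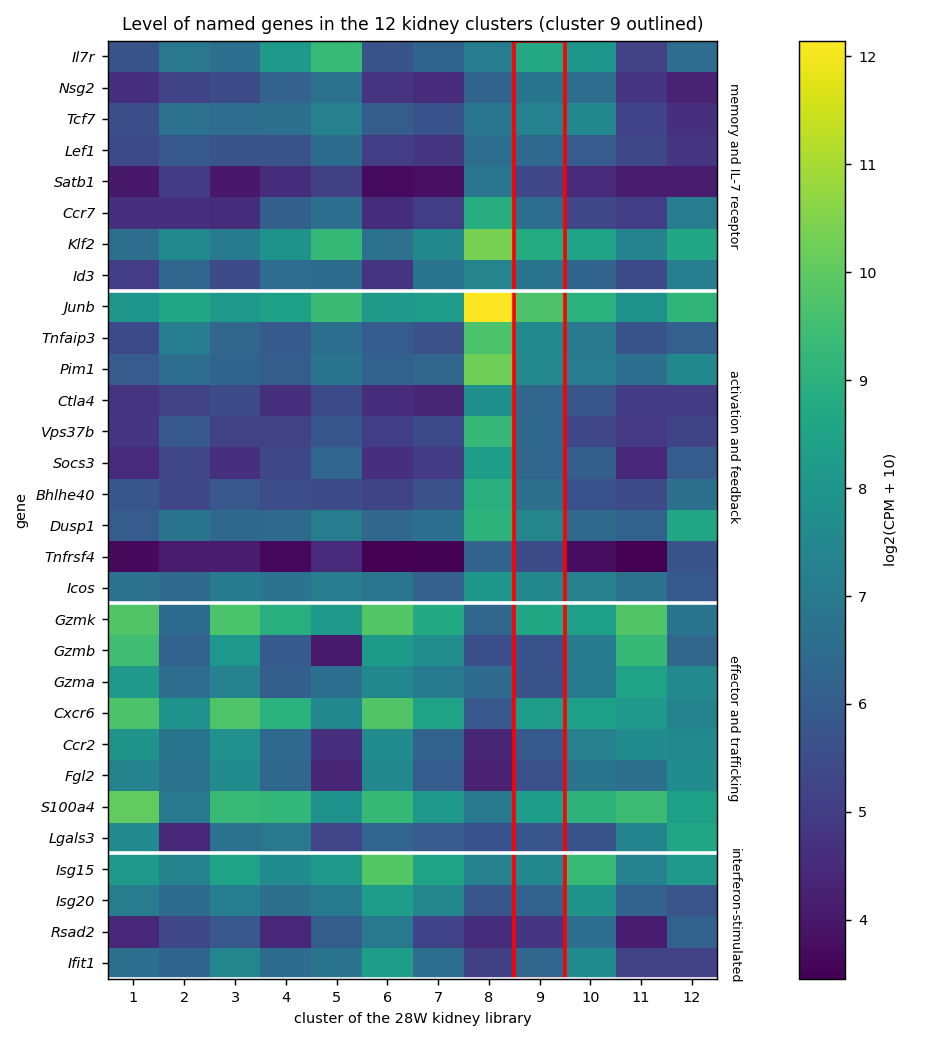
Level of genes named in the text as log2(CPM + 10), by colour, in the 12 kidney clusters, with cluster 9 outlined in red. In cluster 9, Il7r (404 CPM) and Nsg2 (105 CPM) of the upper rows are near the top of their range, while Ccr7 (86.0 CPM) ranks 4. The activation rows come after cluster 8 (Junb at 836 against 4515 CPM). Gzmb (39.7 CPM) and Gzma (42.6 CPM) are near the bottom of their range, while Gzmk (383 CPM) ranks 7 of the 12.

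Across 4850 genes with at least 50 CPM in any kidney cluster, the clusters most like cluster 9 were cluster 5 (Pearson r 0.990), cluster 4 (0.986) and cluster 3 (0.983). These are correlations across genes, which are not independent replicates. Cluster 5 carried more *Il7r*, at 624 CPM, and a larger ribosomal protein share. Among 2520 genes ranked against cluster 5, 6 (0.238%) were at least 2-fold higher in cluster 9 and 1 (0.0397%) was lower. The higher genes included *Ccr2* (log2 ratio 1.27), *Bhlhe40* (1.17), *Nsd1* (1.12), *Peak1* (1.08) and the inhibitory natural killer receptor gene *Klrc1* (1.01), and the lower one was *Rsad2* (-1.19). *Gzmb* was below the floor in both and stood at 39.7 CPM in cluster 9 against 6.94 CPM in cluster 5, while *Gzma* was lower in cluster 9, with a ratio of -0.92. *Isg20* (-0.81), *Cxcl10* (-0.70) and *Isg15* (-0.64) followed among the lowest.

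Against cluster 4, 2613 genes were ranked, of which 8 (0.306%) were at least 2-fold higher in cluster 9 and 4 (0.153%) lower. The higher genes were *Tnfaip3* (1.69), *Ctla4* (1.67), *Pim1* (1.54), *Junb* (1.35), *Vps37b* (1.23), *Bhlhe40* (1.13), *Hist1h1c* (1.06) and *Klf6* (1.03). The lower genes were the neighbouring *Tmem176a* (-1.43) and *Tmem176b* (-1.42), with *Lgals3* (-1.16) and *Capg* (-1.16). *Bhlhe40*, a transcription factor of activated T cells, was thus the gene past the fold against both neighbours.

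For genes that differed between cluster 5 and cluster 1, the largest cluster with the highest *Gzmb* level, cluster 9 was mostly nearer to cluster 5. Of 37 genes at least 2-fold higher in cluster 5 than in cluster 1, it was nearer to cluster 5 for 36, against 32 in cluster 10, 19 in cluster 4, 14 in cluster 3 and 11 in cluster 6. Of 116 genes at least 2-fold higher in cluster 1, it was nearer to cluster 5 for 105, against 86 in cluster 10, 69 in cluster 4, 54 in cluster 6 and 34 in cluster 3. Its level was between the 2 clusters for 22 of the 37, the lowest count of the 5 clusters compared. Clusters 3, 4, 6 and 10 were between for 36, 35, 27 and 24. For the 116 genes cluster 9 was between for 109, against 94, 114, 97 and 86 in the same order. Cluster 5 was already the cluster of highest r with cluster 9 (0.990, against 0.967 for cluster 1). The nearness counts are therefore not separate from that ranking.

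**Figure D5:**
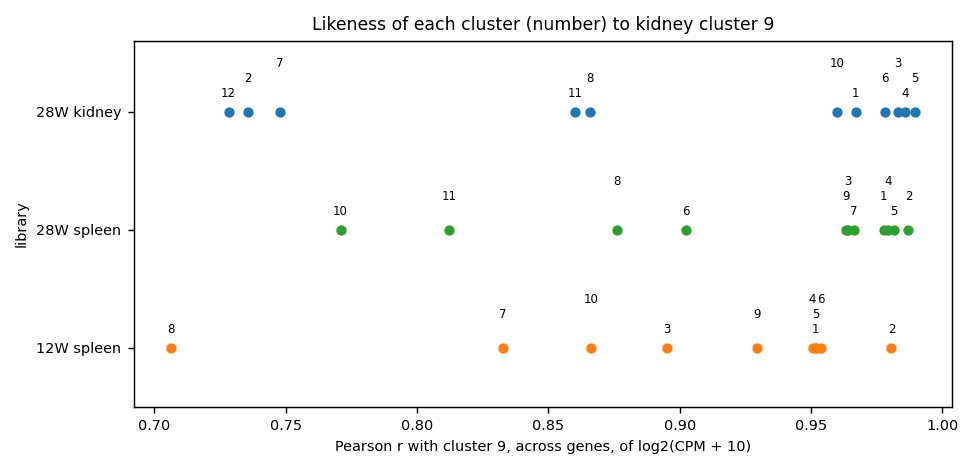
Pearson r across genes of log2(CPM + 10) between cluster 9 and each other cluster of the 3 libraries, with 1 point per cluster, labelled by its number. Kidney cluster 5 (0.990) and cluster 2 of the 28W spleen (0.987) and of the 12W spleen (0.981) are the highest of their libraries.

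In spleen, the clusters most like cluster 9 were cluster 2 of the 28W library (r 0.987) and cluster 2 of the 12W library (0.981). Each library's table had its own normalization, so levels set across them rest on rescaling to CPM. Organ, digestion and preparation, and for the 12W library also age, cannot be told apart. *Il7r* was at 404 CPM in kidney cluster 9, 454 CPM in the 28W spleen cluster and 684 CPM in the 12W spleen cluster. *Tcf7* was at 149, 164 and 175 CPM in the same order. *Tcf7* was thus at similar levels in the 3 clusters, and *Il7r* was lowest in the kidney cluster.

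Some other genes were farther apart between the organs. *Klf2* was at 439 CPM in kidney cluster 9 against 1377 CPM in the 28W and 1201 CPM in the 12W spleen cluster, and *S1pr1* at 72.2 CPM against 112 and 157 CPM. *Cxcr6* was at 291 CPM against 103 and 137 CPM, *Xcl1* at 203 CPM against 72.5 and 82.8 CPM, and *Rgs1* at 437 CPM against 230 and 117 CPM. *Cd69*, which holds T cells in tissue, was at 141 CPM against 185 and 120 CPM. These genes were chosen after their values were seen, and their directions differ. *Hspa1a* was at 981 CPM (942 to 1021) against 36.7 and 9.55 CPM, and it was high in most kidney clusters, from 90.6 CPM in cluster 8 to 1164 CPM in cluster 2. *Nr4a1* was at 38.4 CPM against 6.53 and 12.4 CPM. *Gzmb* was at 39.7 CPM against 96.3 and 24.5 CPM, so the kidney cluster lay between the spleen clusters.

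T cell receptor V segments, which were left out of the ranking, were used broadly. Among 4430 Trbv UMIs of cluster 9, *Trbv13-2* took 24.5% (23.2% to 25.8%), *Trbv13-1* 22.7% (21.5% to 24.0%) and *Trbv4* 9.48% (8.63% to 10.4%), by exact binomial intervals that treat UMIs of 1 cell as separate. In the other clusters these shares ran from 17.7% to 26.3%, from 19.1% to 34.3% and from 7.74% to 12.6%. Among 2244 Trav UMIs, *Trav3-3* took 6.82%, *Trav10d* 5.97% and *Trav5-4* 5.70%. The effective number of segments was 6.96 for Trbv, within 5.53 to 8.18 in the other clusters, and 33.5 for Trav, within 20.3 to 35.1. Over these 6 segments and both effective numbers, cluster 9 was inside the span of the other kidney clusters.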

How the data were processed

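Single-cell RNA sequencing of sorted PD-1+CD44+CD8+ T cells was analysed from 3 pooled libraries of 4 samples each (12W spleen, 28W spleen, 28W kidney), holding 34742303, 32023473 and 29937384 UMIs. Libraries were 10x Genomics 5′ v2. For each library the authors deposited a cluster number per barcode and a table of the mean count of every gene in each cluster. These deposited values are scaled mean counts, not raw counts: those of kidney cluster 1 sum to 3501, against 5677 recovered UMIs per cell. The tables also hold the authors' fold changes and adjusted p-values, which were not used. The submitters' processing notes name Cell Ranger 2.1.1, R 3.6.1 and GRCm38. The study's methods name the Cell Ranger vdj pipeline for gene quantification. Annotation release, cell filters and clustering method are not given in the sources used here, nor how doublets were treated, and no doublet caller was run because no counts per cell were used. Clonotypes were not analysed here.

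Dividing each column by its smallest value above 0 gave whole UMIs for 100% of values (tolerance 0.001). UMIs were pooled over clusters and expressed as CPM. Log2 ratios used a pseudocount of 10 CPM, which understates low genes, and genes with at least 50 CPM on either side were ranked. T cell receptor, immunoglobulin, mitochondrial and ribosomal protein genes were ranked apart, as recognised by their symbols, so genes of these classes with other symbols stayed in the ranking. A list is described by its counts and its median log2 ratio beside that of all ranked genes. The counts above and the medians of a list take every measured gene, with no floor, whereas the ranked genes are past the floor. The 7 program lists follow subsets the study names from these libraries, so they are not independent of them. Likeness was Pearson's r across genes. Intervals are exact Poisson or binomial (95%). With 1 library per group there was no test. Coordinates are from GENCODE M21, in which 17762 of 17790 gene identifiers were found.

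The genes named were the 15 highest and 10 lowest ratios against the other kidney cells, the 5 highest and 5 lowest against each of the 2 most similar kidney clusters, up to 4 genes per list by absolute ratio, list genes with cluster 9 at an extreme of the 12 clusters, defining markers of other cell types, the sort markers and the 3 most used Trbv and Trav segments. Genes past the 2-fold line against clusters 1, 3, 4, 5, 6 and 10, *Ccr7* included, and the spleen levels shown were chosen after their values were seen. Some genes that met these rules are not reported here. The cluster and the lists were chosen with earlier results of these data known. The scripts were tested on simulated data. Python 3.11.15, pandas 2.3.3, numpy 2.4.6, SciPy 1.17.1 and matplotlib 3.10.9 were used.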

Additional observations from a re-analysis of the deposited data

How the results depend on the processing

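No paired analysis was possible because each table pools its samples, with no replicate columns, and for the same reason no replicate could be left out and no count test was run on the recovered UMIs. The number of genes at least 2-fold higher, 3 as reported, was 6 with a pseudocount of 1 CPM, 8 with totals free of receptor, mitochondrial and ribosomal protein genes, 16 without clusters 2, 7, 8 and 12 in the reference and 13 against clusters 1, 3, 4, 5, 6 and 10, a reference chosen after seeing the data. The number at least 2-fold lower, 92 as reported, was 170 with a floor of 20 CPM, 245 with no floor and 11 against those 6 clusters.

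Program medians moved by more than their counting interval as follows. Proliferation was at -3.26 with a pseudocount of 1 CPM, -2.10 with equal weight for the other 11 clusters and -0.35 against the 6 clusters. Cytotoxic was at -0.30 with equal weight, -0.50 with the reduced totals, -0.89 without clusters 2, 7, 8 and 12 and -0.82 against the 6 clusters. In the last 2 settings CD29 was at 0.67 and 0.62, memory at 1.01 and 0.97, and Junb and NF-kB at 0.75 and 0.67, and against the 6 clusters ISG was at -0.55. The memory median was positive and the cytotoxic, ISG and proliferation medians negative in all settings tried.

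Of the 25 genes with the most extreme ratios, 2 turned sign without clusters 2, 7, 8 and 12 (*Gm20730* 0.0321, *Gpx3* 0.0632) and 4 against the 6 clusters (*Jchain* 0.0091, *H2-Eb1* 0.025, *Gm20730* 0.0423, *Hbb-bs* 0.25). *Hbb-bs*, high in clusters 2 and 11, was at -4.04 until cluster 11 also left the reference. The cause was not tested. Of 19 function lists, between 0 and 7 turned sign by setting. Clusters 5 and 4 stayed the most like cluster 9 by Spearman's correlation and without receptor, mitochondrial and ribosomal protein genes. The share of cells was 10.2% of the cells outside clusters 2, 7, 8 and 12.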

Other observations

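Ribosomal protein genes took 324813 CPM of cluster 9 against 249276 CPM in the remaining kidney cells, with 90 of 102 genes above, a median log2 ratio of 0.35, and 89 above clusters 1, 3, 4, 5, 6 and 10, with a median of 0.24. Nuclear genes of respiratory complex I (4 of 45 above, median -0.25) and of ATP synthase (1 of 16 above, median -0.22) were lower. Of 9 glycolysis genes 2 were above, with a median of -0.21, and *Gapdh* was at 1330 CPM (1284 to 1377) against 1970 CPM. Growth and ribosome biogenesis genes had a median of -0.12, with *Ran*, a nuclear transport GTPase, at 288 CPM (266 to 310) against 461 CPM. CPM are shares of a total, so a larger ribosomal share lowers the value of every other gene by construction.

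The invariant-type segment *Trav1*, read as a marker of mucosal-associated invariant T cells only together with other segments, was highest in cluster 9 of the 12 clusters at 33.8 CPM (26.8 to 42.0), and the next was cluster 6 at 27.9 CPM, inside the interval. With *Zbtb16* and *Trav11* it summed to 34.2 CPM, so nearly all of the list was *Trav1*.

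Among cytokine genes, *Tnf* was at 80.6 CPM (69.6 to 92.8) against 62.1 CPM, *Il2* at 11.3 CPM (7.43 to 16.4) against 6.10 CPM, *Lta* at 16.7 CPM (11.9 to 22.7) against 11.8 CPM and *Fasl* at 48.4 CPM (40.01 to 58.1) against 74.8 CPM. Of the 11 genes in the list 5 were above the remaining kidney cells, near the share of all ranked genes, with a median of -0.03. Only 4 of the 11 passed the floor of 50 CPM used for that share, and 3 had 0 UMIs in cluster 9.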
